A study of Homo sapiens with 6 samples.

Results

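Tumour necrosis factor (TNF) family ligands and receptors were followed in MDA-MB-231 cells, a human triple-negative breast cancer line, after the message of MYO10 was lowered. MYO10 encodes a motor protein that moves to the tips of filopodia. The family members described are 10 genes out of 19775 with a probe set of their own: the ligands TNFSF15, TNFSF10, TNFSF9 and TNFSF4, and the receptors TNFRSF10B, TNFRSF1A, TNFRSF12A, TNFRSF21, FAS and TNFRSF11B. The set was chosen on these same arrays, with the lower signal of TNFSF15 already known, so the members' values are a description. No p-value of a single member is printed. Test calls among the members are given as part of that description, and nothing is read from them. Every probe set that the platform annotation assigns to 1 of these symbols alone was taken, 22 in all.

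The data are 6 one-colour Affymetrix arrays of 54675 probe sets, each probe set being a group of short oligonucleotides that reads 1 stretch of transcript. A short hairpin RNA (shRNA) directed at MYOSIN10, an older name of MYO10, was stably expressed in 3 samples and a scrambled shRNA in the other 3. The culture medium was L-15 with serum, no drug or other treatment is labelled, and all 6 samples are the same line, so expression from a stable hairpin is shared by both groups. The labels do not give the hairpin sequence, the number of hairpins or clones, or whether the numbered samples were separate cultures, so every error below may be technical spread.

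Signals are given as log2(signal + 16), where 16 is a pseudocount that damps the noise of dim probe sets and makes their differences smaller. A fold or a percentage of scramble is taken from means on this scale, so it is of signal + 16. A difference is the mean with MYOSIN10 shRNA minus the mean with scramble shRNA. It is relative to the rest of each array, because every array was scaled to the same level, and fewer cells with a transcript cannot be told apart from less transcript per cell. Dim probe sets, those under the 40th percentile of their array on more than 3 arrays, were left out. Of the 22 member probe sets 20 were kept. The other 2, 1 of TNFRSF10B and 1 of FAS, were under that percentile on every MYOSIN10 shRNA array. They reached it only on scramble arrays, TNFRSF10B on array 1 (linear signal 54.8) and FAS on arrays 1 and 3 (38.8 and 37.1). The percentile was 33.7 on scramble array 1 and 32.9 on scramble array 3.

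TNF ligands are trimeric proteins, most of them made as membrane proteins that can be shed, and they act by clustering receptors on a neighbouring or the same cell. Receptors with a death domain, among them FAS, TNFRSF1A, TNFRSF10B and TNFRSF21, can recruit adaptors that activate caspases, while others bind TRAF proteins and lead to NF-kB and JNK signalling. Breast cancer cells make both ligands and receptors of the family, and whether a receptor kills or stimulates depends on the adaptors beside it.

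MYO10 itself checked the labels. Its brightest probe set read 11.57, 11.96 and 11.86 on scramble arrays 1 to 3 and 10.70, 11.39 and 10.64 on MYOSIN10 shRNA arrays 1 to 3. The difference was -0.88 ± 0.17 (SE, n = 3 each; limma adjusted p = 0.0318 over all probe sets), and over the alternatives at gene level the adjusted p ran from 0.000124 to 0.243, losing the call without scramble array 1 (0.0643) or 3 (0.142) or MYOSIN10 shRNA array 1 (0.137) or 3 (0.143). Of the 5 MYO10 probe sets 4 were lower, with overlap between the groups in 244350_at. Only the brightest passed in limma over all probe sets (adjusted p of the other lower ones 0.051, 0.163 and 0.126). The remaining one, 1554026_a_at, stood at 0.31 with overlap. With MYOSIN10 shRNA its mean (7.53) was no dimmer than those of 236718_at (7.32) and 244350_at (7.18). In the brightest probe set, array 2 of the MYOSIN10 shRNA group kept the most MYO10 message. The correlation between arrays over kept probe sets was 0.973 to 0.982. On the first principal component, which held 27.4% of the variance, the knockdown arrays took scores of 22.2 to 33.2, scramble arrays 1 and 3 scores of -43.2 and -40.0, and scramble array 2 a score of 3.46. Without scramble array 2 the share of all 14174 genes called was 6.8%, against 1.62% with all arrays. The carcinoma markers VIM, KRT8, KRT18, CD44, CAV1, EGFR and AXL all had kept probe sets, and KRT8 (0.34 higher) and KRT18 (0.30 higher) stood higher with MYOSIN10 shRNA with the groups apart. Of the immune markers 2 of 7 had a kept probe set (CD14 and CD3E), and PTPRC had none. Of the endothelial markers 2 of 5 had a kept probe set (PECAM1 and KDR), and VWF, CDH5 and TEK had none. Fibroblast markers had a kept probe set for 4 of 5, and their summed signal overlapped (231 to 479 with scramble shRNA, 302 to 660 with MYOSIN10 shRNA). Of 5 luminal breast markers ESR1, GATA3 and EPCAM had a kept probe set and PGR and CDH1 had none, and EPCAM (0.77 higher) and the dim CDH1 (0.76 higher) had the groups apart. The summed signal of the 5 was 1387 to 1535 with scramble shRNA and 1707 to 1903 with MYOSIN10 shRNA, and the part of these keratin and luminal genes in the results below was not tested.

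Among the members the difference between MYOSIN10 shRNA and scramble shRNA was lowest for TNFSF15 and highest for TNFSF10, and most receptors differed by much less. Of the 20 kept member probe sets 15 were higher and 5 lower with MYOSIN10 shRNA. In 7 the MYOSIN10 shRNA arrays lay wholly above the scramble arrays and in 2 wholly below, and over all 33370 kept probe sets these shares were 9.18% and 8.94%. The limma test with Benjamini-Hochberg adjustment over all kept probe sets called 2 of the 20 lower and 0 higher, with 12 at an unadjusted p under 0.05 in either direction, and over all kept probe sets it called 0.366% lower and 0.692% higher and placed 13.2% under that unadjusted p. Both calls were probe sets of TNFSF15. The count of calls was 1 without scramble array 1 or 3 or MYOSIN10 shRNA array 1, and 4 without MYOSIN10 shRNA array 2. Each single call was 229242_at of TNFSF15. The 4 were that probe set, called lower, and the 3 probe sets of TNFSF10, called higher. Over the 16 alternatives 229242_at was called in 15 and 221085_at, the other TNFSF15 probe set, in 9. The choice of members used this contrast, so nothing is read from these counts. Without scramble array 2 the groups were apart in 10 of the 20 (34.8% of all probe sets), and without both arrays numbered 2 in 17 of the 20 (48.4% of all).

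**Figure D1:**
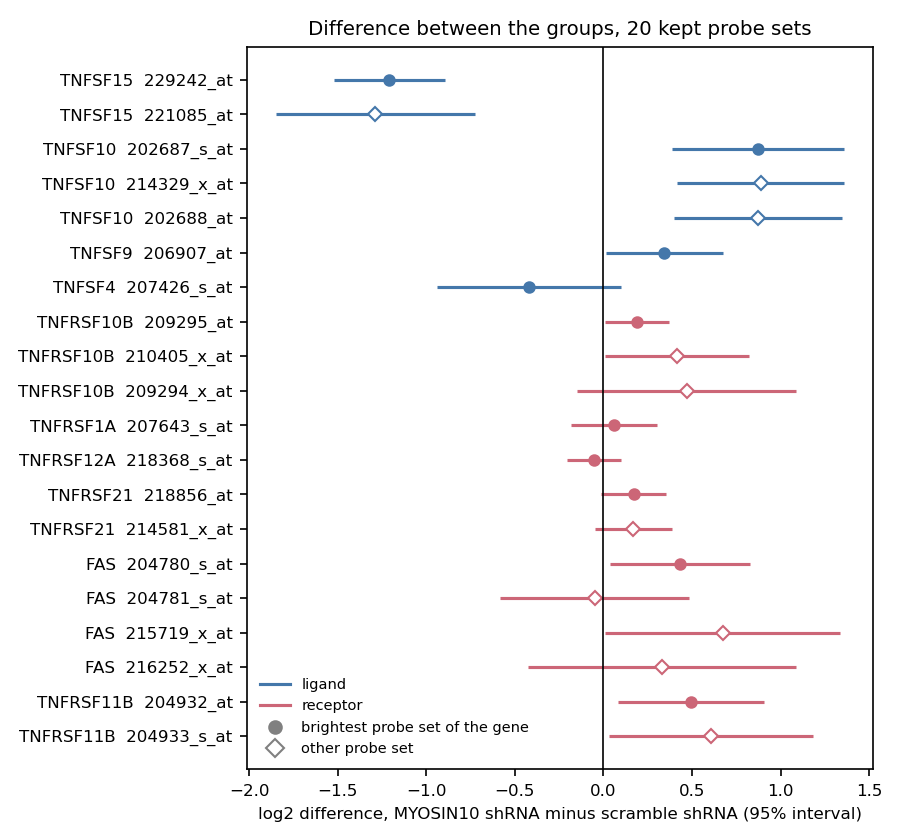
Difference in log2(signal + 16) between MYOSIN10 shRNA and scramble shRNA cells for the 20 kept member probe sets, with 95% intervals from the limma fit (3 arrays per group). Both TNFSF15 probe sets lie below -1.2, the 3 TNFSF10 probe sets lie near 0.87 to 0.89, and the receptors lie between -0.05 and 0.67.

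TNFSF15, also called TL1A, is a ligand that costimulates T cells and restrains endothelial growth. Its receptor is TNFRSF25, and TNFRSF6B is a soluble decoy for it. The brighter of its 2 probe sets, 229242_at, read 9.57, 9.18 and 9.64 on the scramble arrays and 8.26, 8.17 and 8.33 on the MYOSIN10 shRNA arrays. All 3 MYOSIN10 shRNA arrays were low and close together, and the nearest arrays of the groups were a wide gap apart. The difference was -1.21 ± 0.14 (SE, n = 3 each), which left 43.3% of the scramble value of signal + 16. The dimmer probe set, 221085_at, read 7.36, 7.27 and 7.04 with scramble shRNA and 5.73, 5.72 and 6.36 with MYOSIN10 shRNA. It was again lower on all 3 arrays, by -1.29 ± 0.26 (SE), leaving 41.0% of the scramble value of signal + 16, although array 3 kept more signal than arrays 1 and 2. That value rests on dim signals and was -0.85 with a pseudocount of 64 and -1.55 with a pseudocount of 1. For the brighter probe set the 16 alternative settings gave -1.35 to -1.09. MYOSIN10 shRNA array 2, which kept the most MYO10 by its brightest probe set, had the lowest TNFSF15 of its group in both probe sets, by a hair in the dimmer one. Scramble array 2 was also the lowest of its group in the brighter probe set, but not in the dimmer one. What this order reflects was not tested.

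TNFSF10, or TRAIL, is a death ligand that triggers apoptosis through TNFRSF10A and TNFRSF10B and is known to be induced by interferon. Its brightest probe set, 202687_s_at, read 10.68, 9.81 and 10.43 on scramble arrays 1 to 3 and 11.46, 10.68 and 11.40 on MYOSIN10 shRNA arrays 1 to 3. The knockdown arrays were higher, but MYOSIN10 shRNA array 2 was level with scramble array 1, so the groups touched. The difference was 0.87 ± 0.22 (SE, n = 3 each), or 1.83-fold. The probe set 214329_x_at read 10.50, 9.59 and 10.22 against 11.14, 10.56 and 11.28, a difference of 0.89 ± 0.22 (SE) with the groups apart. The probe set 202688_at read 10.23, 9.40 and 10.20 against 11.15, 10.40 and 10.91, a difference of 0.87 ± 0.22 (SE), also with the groups apart. In all 3 probe sets array 2 was the lowest of its group on both sides. The spread within a group was 0.38 to 0.47 (SD), and it was alike in the 3 probe sets. Without scramble array 2 the 3 differences were 0.62, 0.63 and 0.60, and without both arrays numbered 2 they were 0.87, 0.85 and 0.81.

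TNFSF9 (4-1BB ligand), which costimulates T cells through TNFRSF9, had 1 probe set, 206907_at. It read 7.65, 7.64 and 7.71 with scramble shRNA and 8.10, 8.05 and 7.89 with MYOSIN10 shRNA. The scramble arrays were almost level and all 3 MYOSIN10 shRNA arrays lay above them, by 0.34 ± 0.15 (SE, n = 3 each) or 1.27-fold. TNFSF4 (OX40 ligand), another costimulatory ligand, read 6.67, 7.03 and 7.14 with scramble shRNA and 6.59, 6.73 and 6.25 with MYOSIN10 shRNA on its single probe set. The groups overlapped, with a difference of -0.42 ± 0.24 (SE) and a 95% interval from -0.94 to 0.099.

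**Figure D2:**
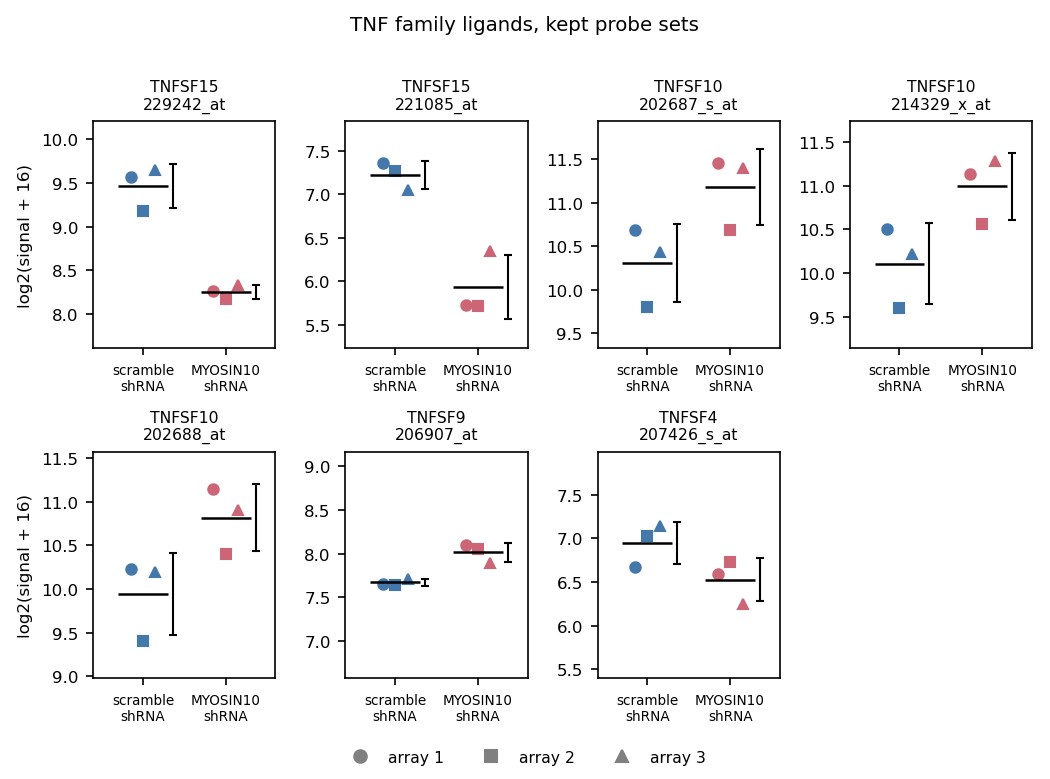
Signal of the 7 kept ligand probe sets on each array as log2(signal + 16), with the group mean (line) and SD (bar) over 3 arrays, all panels spanning the same range. TNFSF15 is lower with MYOSIN10 shRNA on every array, and array 2 (square) is the lowest of each group for TNFSF10.

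The stretches before the start sites of 3 ligands are shown because TNFSF15 stood lower with MYOSIN10 shRNA while TNFSF10 and TNFSF9 stood higher. They are the 250 bases before the start site in RefSeq on GRCh38.p14, read on the gene's strand: chr9:114792531-114792780 (minus strand) for TNFSF15, chr3:172523431-172523680 (minus strand) for TNFSF10 and chr19:6530776-6531025 (plus strand) for TNFSF9. Capitals mark matches to the motifs named after them.
TNFSF15: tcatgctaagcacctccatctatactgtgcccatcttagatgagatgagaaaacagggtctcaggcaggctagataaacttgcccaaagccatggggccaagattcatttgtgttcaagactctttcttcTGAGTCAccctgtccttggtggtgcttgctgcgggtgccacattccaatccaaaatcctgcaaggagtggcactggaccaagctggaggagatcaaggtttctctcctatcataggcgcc
TNFSF10: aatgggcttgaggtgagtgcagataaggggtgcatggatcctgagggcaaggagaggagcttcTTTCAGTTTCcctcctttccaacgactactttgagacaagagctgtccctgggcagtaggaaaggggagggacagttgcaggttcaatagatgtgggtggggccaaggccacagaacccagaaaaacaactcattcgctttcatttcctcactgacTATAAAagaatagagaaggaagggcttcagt
TNFSF9: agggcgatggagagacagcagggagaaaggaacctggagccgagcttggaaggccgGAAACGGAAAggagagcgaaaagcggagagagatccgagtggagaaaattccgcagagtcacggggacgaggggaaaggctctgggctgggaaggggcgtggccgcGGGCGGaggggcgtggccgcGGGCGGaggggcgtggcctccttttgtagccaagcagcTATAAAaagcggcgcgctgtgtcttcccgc

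Windows of 300 bases, from 250 before to 50 after a start site, were searched on both strands for 8 motifs. The window of TNFSF15 held a single match, an AP-1 motif (TGANTCA) 120 bases upstream, which 7.71% of the 35116 windows in the table also hold. TNFSF10 held a TATA box (TATAAA) 31 bases upstream, as do 11.5% of windows. It also held the interferon-stimulated response element, ISRE (GAAANNGAAA), on the opposite strand 187 bases upstream, as do 3.57%. TNFSF9 had the same pair, a TATA box 30 and an ISRE 194 bases upstream. It also had 2 GC boxes (GGGCGG), a motif found in 45.0% of windows. The E-box (CACGTG, 7.26% of windows), the GAS element (TTCNNNGAA, 7.66%), the CRE (TGACGTCA, 1.85%) and the NF-kB motif (5.91%) had no match in these 3 windows. Among the other members with windows, TNFSF4 and TNFRSF1A had no match to any of the 8 motifs, and 1 of 3 FAS windows held the NF-kB motif. The AP-1 motif was not particular to TNFSF15, as 1 FAS window held it 242 bases upstream. All 3 FAS windows held a GC box, but those starting at chr10:88990548 and chr10:88990664 overlap and hold the same box. TNFRSF21 held a GC box 52 and an E-box 34 bases upstream. TNFSF15 and TNFSF10 each had 3 CpG dinucleotides in the window and TNFSF9 had 27, against a median of 14 over all windows. The table held windows of 7 of the 10 members, and a match says only that these letters are present.

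TNFRSF10B (death receptor 5), the receptor that carries the TRAIL death signal in many tumour cells, had 3 kept probe sets. The brightest, 209295_at, read 12.11, 12.16 and 12.05 with scramble shRNA and 12.31, 12.41 and 12.17 with MYOSIN10 shRNA. The groups were apart by a hair, and the difference was 0.19 ± 0.084 (SE, n = 3 each), or 1.14-fold. The dimmer 210405_x_at was also apart, at 0.42 ± 0.19 (SE), and 209294_x_at overlapped, at 0.47 ± 0.28 (SE) with scramble array 1 far below the others at 6.52. Without scramble array 1 the latter difference was 0.11, and without scramble array 3 that of 210405_x_at was 0.26. The probe set that was not kept read 4.60 to 6.15 with scramble shRNA and 4.62 to 4.93 with MYOSIN10 shRNA, in the opposite order.

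TNFRSF11B (osteoprotegerin) is a secreted decoy that binds TNFSF11 and also TRAIL. Its probe set 204932_at read 8.29, 7.91 and 7.81 with scramble shRNA and 8.65, 8.13 and 8.72 with MYOSIN10 shRNA. The groups overlapped through MYOSIN10 shRNA array 2, and the difference was 0.49 ± 0.19 (SE, n = 3 each), or 1.41-fold. The probe set 204933_s_at read 8.18, 7.36 and 8.13 against 8.95, 7.94 and 8.60, a difference of 0.61 ± 0.26 (SE) with overlap. Here too array 2 was the lowest of both groups, as for TNFSF10. This difference was 0.34 without scramble array 2 and 0.38 without MYOSIN10 shRNA array 1.

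FAS, the receptor of FAS ligand, gave no single direction over its probe sets. The brightest, 204780_s_at, read 7.19, 6.94 and 7.19 with scramble shRNA and 7.66, 7.44 and 7.51 with MYOSIN10 shRNA. All MYOSIN10 shRNA arrays were higher, by 0.43 ± 0.18 (SE, n = 3 each) or 1.35-fold. The dimmer 215719_x_at was also higher on every MYOSIN10 shRNA array, at 0.67 ± 0.31 (SE), where scramble array 3 read 5.40 and the other scramble arrays 6.20 and 6.27. Without scramble array 3 that difference was 0.40. The other two kept probe sets overlapped, at -0.048 for 204781_s_at and 0.33 for 216252_x_at, the former turning to 0.083 without scramble array 2 and to 0.044 without MYOSIN10 shRNA array 3, and the latter being 0.18 without MYOSIN10 shRNA array 1. The probe set that was not kept stood at -0.57. Apart from 204780_s_at, the FAS probe sets all had group means under 7 on this scale.

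TNFRSF21 (death receptor 6) is a death domain receptor known from neurons and immune cells. Its probe set 218856_at read 12.69, 12.56 and 12.77 with scramble shRNA and 12.86, 12.72 and 12.95 with MYOSIN10 shRNA. The difference was 0.17 ± 0.085 (SE, n = 3 each) with overlap, and 214581_x_at gave 0.17 ± 0.10 (SE), also with overlap. Without scramble array 2 the values were 0.12 and 0.26.

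TNFRSF1A, the main receptor of TNF, read 10.82, 10.64 and 11.07 with scramble shRNA and 10.89, 10.86 and 10.96 with MYOSIN10 shRNA. The MYOSIN10 shRNA arrays lay within the scramble range, and the 95% interval of the difference ran from -0.18 to 0.30. The sign of this difference turned without scramble array 2 (-0.042). TNFRSF12A (Fn14), the receptor of TWEAK, read 13.10, 13.11 and 13.16 against 13.06, 13.14 and 13.02. It was among the steadiest members, with an SD of 0.029 and 0.061 and a 95% interval from -0.20 to 0.098.

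**Figure D3:**
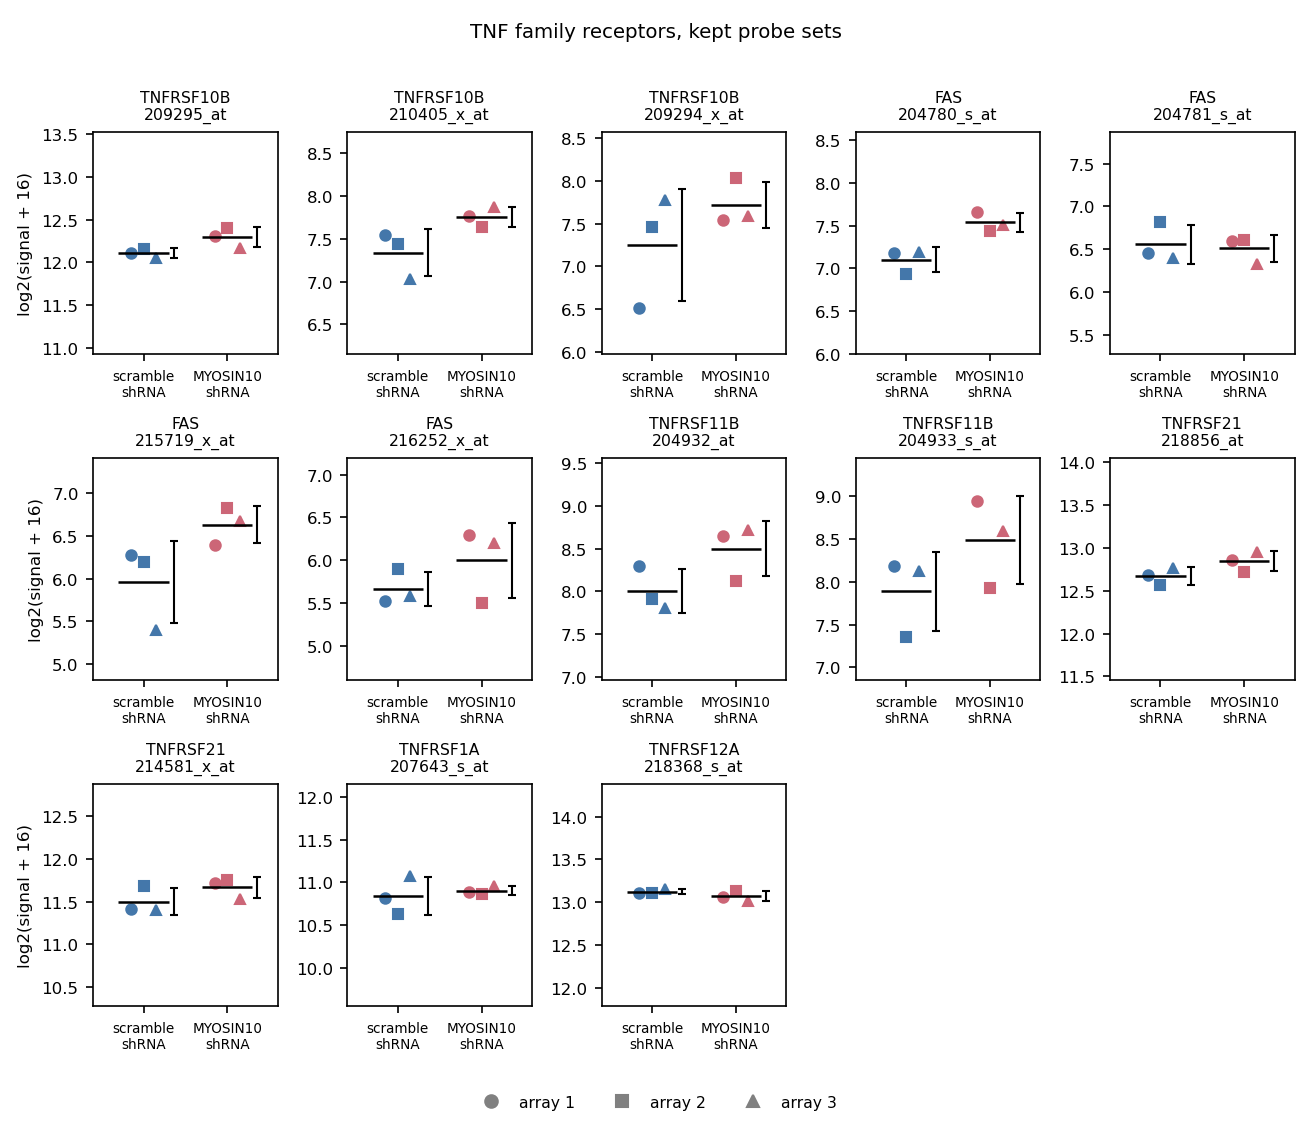
Signal of the 13 kept receptor probe sets on each array as log2(signal + 16), with the group mean (line) and SD (bar) over 3 arrays, all panels spanning the same range. TNFRSF12A and TNFRSF1A are level between the groups, and array 2 (square) is the lowest of each group for 204933_s_at of TNFRSF11B.

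**Figure D4:**
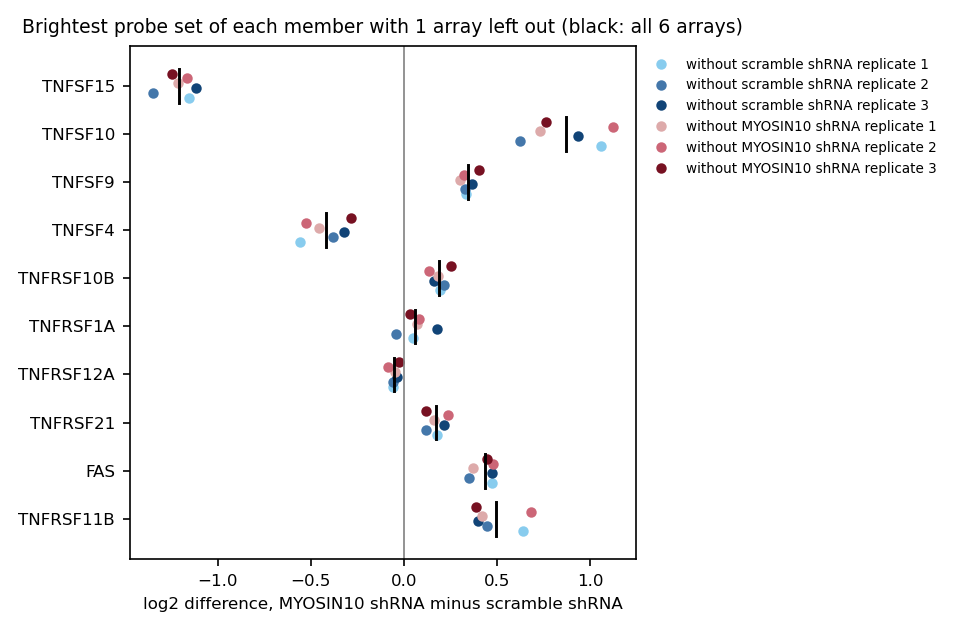
Difference of the brightest probe set of each of the 10 members with all 6 arrays (black line) and with each array left out in turn (points, in log2 units). TNFSF15 stays between -1.35 and -1.12 and TNFSF10 between 0.62 and 1.12, while TNFRSF1A crosses 0 without scramble array 2.

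The partners of the members were named for their binding, outside the rule for named genes. For each gene the brightest kept probe set was tested with limma over 14174 genes. TNFRSF25, the receptor of TNFSF15, read 7.49, 6.84 and 6.79 with scramble shRNA and 6.32, 5.12 and 6.62 with MYOSIN10 shRNA, and its value of -1.02 ± 0.38 (SE) did not pass (adjusted p = 0.24). Its other two kept probe sets had the opposite sign, at 0.64 and 0.44, so its direction is uncertain. Of the TRAIL receptors, TNFRSF10A stood at 0.12 (adjusted p = 0.716) and the decoys TNFRSF10C and TNFRSF10D at -0.21 (0.761) and -0.29 (0.346). TNFRSF9, the receptor of TNFSF9, stood at 0.52 (0.527) and TNFRSF4, the receptor of TNFSF4, at 0.23 (0.834). FASLG was dim and stood at 0.22 (0.846). The probe set of TNF itself was not kept, with values from 4.65 to 6.29 over the 6 arrays.

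TNFRSF1B, the TNF receptor without a death domain, was the single family gene outside the members to pass. Its signal was 9.68 ± 0.19 with scramble shRNA and 9.10 ± 0.11 with MYOSIN10 shRNA (SD, n = 3 each). It fell by 0.58 on the log2 scale (SE 0.13, limma adjusted p = 0.0474), lower on all 3 arrays, against 0.459% of all genes called lower and 1.16% called higher. The call lay near the threshold: over all probe sets its adjusted p was 0.054, and without single arrays it ran from 0.0057 (without scramble array 2) to 0.217 (without scramble array 1) and passed only in the former case. Outside the members 17 receptors were measured, of which 1 fell, 0 rose and 16 missed the threshold, 3 of the 17 having an unadjusted p under 0.05 (14.9% of all genes), with a median difference of -0.080 against 0.0093 over all genes. Of 7 measured ligands outside the members, at their brightest kept probe sets, 0 passed in limma and 0 had an unadjusted p under 0.05. Their median was -0.27, and the B cell factors TNFSF13B at -0.63 (adjusted p = 0.372) and TNFSF13 at 0.32 (0.422) had the smallest p. The median was the value of LTB, whose other kept probe set stood at 0.67 with the groups apart. The other kept probe set of EDA stood at -1.12, also apart, against -0.41 at its brightest. In limma over all probe sets both had an unadjusted p under 0.05 (0.034 and 0.025) and did not pass (adjusted p = 0.328 and 0.295). The count under 0.05 thus depends on the probe set taken. The other kept probe set of TNFSF13B stood at -0.18 with overlap.

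Among genes below the receptors few passed. In the death branch (adaptors, caspases and their inhibitors) 0 of 21 measured genes passed in limma, 6 had an unadjusted p under 0.05, a mark that 14.9% of all genes reached, and the median was 0.12. FADD, the adaptor that joins death receptors to caspases, read 11.74, 11.77 and 11.74 against 11.95, 12.03 and 12.02, a value of 0.25 ± 0.072 (SE, adjusted p = 0.12) with the groups apart. CASP8, the caspase that FADD recruits, stood at 0.32 ± 0.11 (SE, adjusted p = 0.194). Without scramble array 2, 3 genes of this branch passed, where 6.8% of all genes did. In the NF-kB and JNK branch 0 of 26 passed, 4 had an unadjusted p under 0.05, a share near the 14.9% of all genes, and the median was 0.0092. TRAF5, an adaptor of costimulatory TNF receptors, stood at 0.48 ± 0.12 (SE, adjusted p = 0.0724). RBCK1, a part of the linear ubiquitin ligase, stood at -0.36 ± 0.090 (SE, adjusted p = 0.0777), and at -0.19 with the mean of its probe sets (limma adjusted p = 0.509). In this branch 2 genes passed without scramble array 2, where 6.8% of all genes did.

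Of 29 measured genes that TNF is known to induce, 1 was called higher and 1 lower, and 27 missed the threshold. An unadjusted p under 0.05 was reached by 12, against 14.9% of all genes, and the median was 0.059. The chemokine CXCL3 read 11.52 to 12.10 on the scramble arrays and 10.72 to 11.02 on the MYOSIN10 shRNA arrays. It fell by 0.92 on the log2 scale (SE 0.14, limma adjusted p = 0.00731), lower on all 3 arrays. Its adjusted p was 0.0531 without scramble array 1, and it ran from 9.37e-05 to 0.161 over the alternatives. NFKBIA, the inhibitor that NF-kB itself induces, read 12.08, 12.26 and 12.26 against 12.67, 12.50 and 12.60 and rose by 0.39 ± 0.081 (SE; limma adjusted p = 0.0403), higher on all 3 arrays. Over the alternatives the adjusted p ran from 0.00581 to 0.958, and the call ended without scramble array 1 (0.184) or 3 (0.105) or MYOSIN10 shRNA array 1 (0.202) or 3 (0.174). The dim 231699_at of NFKBIA stood at 0.050. Without scramble array 2, 8 genes of this list passed, where 6.8% of all genes did. Among 9 genes of ligand shedding 0 passed in limma and 2 had an unadjusted p under 0.05 (14.9% of all genes), SPPL2A, an intramembrane protease, at 0.29 (adjusted p = 0.108; -0.099 with the mean of its probe sets) and the rhomboid relative RHBDF1 at -0.32 (0.332). The main sheddases ADAM17 and ADAM10 stood at -0.011 and -0.048.

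**Figure D5:**
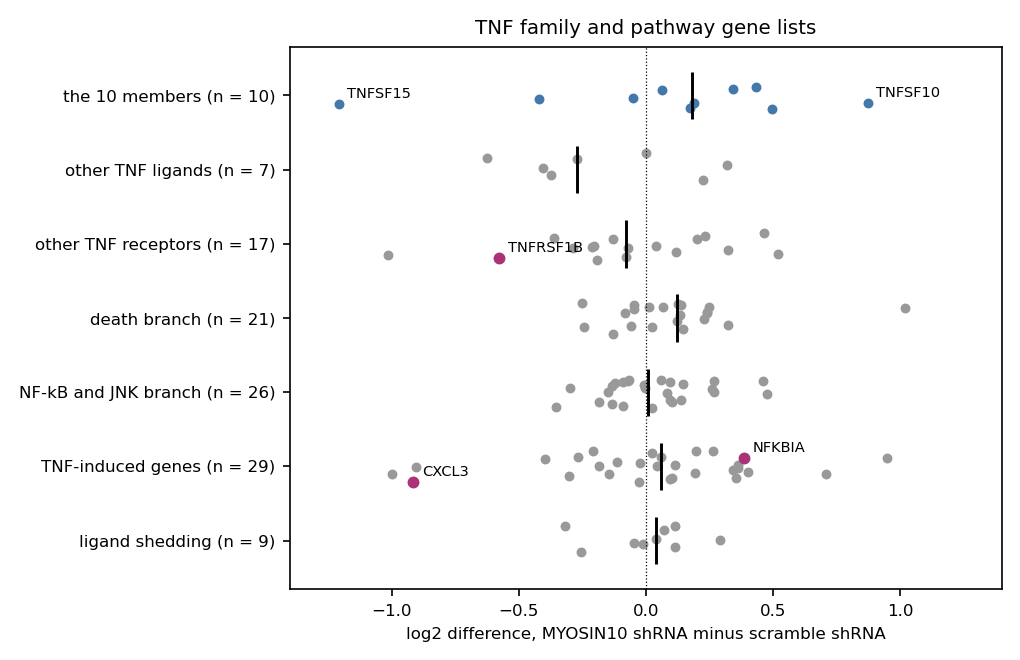
Difference between the groups in log2(signal + 16) for the members (blue) and for 6 lists of related genes (grey, or purple where the limma adjusted p was under 0.05), 1 point per gene at its brightest kept probe set, with the list median as a black bar. Outside the members the purple points are TNFRSF1B at -0.58, CXCL3 at -0.92 and NFKBIA at 0.39.

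By likeness of pattern over the 6 arrays, the genes nearest to TNFSF15 among 7265 candidates of at least median signal were PLAU, the urokinase (Pearson r = 0.999), TIMM17B (0.995), PNRC2 (0.994), EARS2 (0.994) and EXOSC6 (0.993). These r values are a description: the 6 arrays form 2 groups, and any gene that is lower with MYOSIN10 shRNA and even within groups scores high. TNFSF15 itself was uneven within the scramble group (9.57, 9.18 and 9.64), so the highest r values also depend on the spread within groups. The differences of these genes were smaller than that of TNFSF15, from -0.75 for PLAU to -0.24 for EXOSC6. EARS2 and EXOSC6 did not pass in limma over all genes (adjusted p = 0.276 and 0.261).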

How the data were processed

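Expression was measured on 1 array per sample in 3 MYOSIN10 shRNA and 3 scramble shRNA samples. The authors deposited log2 signals made with MAS5, per the submitters' processing notes. For MAS5, version and scaling target were not given in the sources used here. That the scale is log2 was read from the values, whose linear 2% trimmed mean was 500.1 on all arrays. Between 0.754% and 1.01% of an array's probe sets sat at the floor of 0. Precision is limited by the number of arrays.

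From these values log2(signal + 16) was computed and probe sets were kept at the 40th percentile on at least 3 arrays, 33370 in all. Symbols came from the platform annotation, updated through RefSeq GRCh38.p14 by Entrez number for 41043 of 41097 probe sets. limma 3.58.1 in R 4.3.3 (lmFit, eBayes with a variance trend, group as the sole term, two-sided, Benjamini-Hochberg) was fitted over all kept probe sets, and for gene lists over 14174 genes, each by its brightest kept probe set. The steps were tested on simulated data. Promoter windows are from RefSeq and motif searches used Python 3.11.15.

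The members and lists were chosen with earlier results of these data known. The rule for named genes took MYO10, all member probe sets, from each other list up to 4 called genes of largest change or, with no call, the 2 of smallest p, and the 5 genes most like TNFSF15. Alternatives changed the pseudocount, filter, scaling, variance model, array weights, probe set rule and arrays used, or added the replicate number as a block.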

Additional observations from a re-analysis of the deposited data

How the results depend on the processing

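The sign of the difference held in all alternatives for each kept probe set of TNFSF15, TNFSF10, TNFSF9, TNFSF4, TNFRSF10B, TNFRSF11B, TNFRSF21 and TNFRSF12A, and it turned for TNFRSF1A in 2 of 15 and for FAS 204781_s_at in 3 of 14. Counts of calls moved more. Pseudocounts of 1 and 64, the 60th percentile filter and quantile normalization left every count within 1.5 times. Without the variance trend 0 probe sets and 7 genes were called, 0 of them among members, receptors or TNF-induced genes. Without a filter 173 probe sets and 126 genes were called, with 1 member probe set, 0 other receptors and 1 TNF-induced gene. With array weights the counts were 949 probe sets and 791 genes, with 5 member probe sets, 2 other receptors, 2 death branch genes, 2 NF-kB and JNK branch genes, 6 TNF-induced genes and 1 shedding gene. Averaging the probe sets of a gene gave 111 genes, 0 other receptors and 1 TNF-induced gene, and leaving out _s_at and _x_at probe sets gave 226 probe sets and 1 TNF-induced gene. Without both arrays numbered 2 the counts were 1655 probe sets and 1224 genes, with 4 member probe sets, 3 other receptors, 3 death branch genes, 2 NF-kB and JNK branch genes, 8 TNF-induced genes and 1 shedding gene, and the groups were apart in 17 member probe sets, against 9 with all arrays (this last count and its value without scramble array 2 were added after the data were seen). The causes of these shifts were not tested.

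With 1 array left out the counts ran from 59 to 1466 for probe sets, 66 to 964 for genes, 1 to 4 for member probe sets, 0 to 3 for other receptors, 0 to 3 for the death branch, 0 to 2 for the NF-kB and JNK branch, 0 to 8 for TNF-induced genes and 0 to 1 for shedding. The highest genome-wide counts came without scramble array 2. Same-numbered arrays did not deviate together throughout (r = 0.033, 0.118 and 0.013 for numbers 1 to 3), so the numbers were not taken as pairs. MYOSIN10 shRNA array 1 correlated better with scramble array 3 (0.045) than with its own number. The 2 arrays numbered 2 had the highest r of any pair, and each correlated negatively with the other numbers of the opposite group (-0.075 to -0.053). Deviations were taken from the group mean and sum to 0 for each probe set. A positive r in 1 pair therefore pushes the others down, and nothing is read from the negative values. Whether the numbers mark shared handling is not labelled. With the replicate number as a block the counts were 891 probe sets and 611 genes, with 6 member probe sets, 2 other receptors, 1 NF-kB and JNK branch gene and 5 TNF-induced genes.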
